A study of Mus musculus with 8 samples.

Results

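NF-κB is a family of transcription factors that carries signals of bacterial products and inflammatory cytokines to the nucleus, and it is restrained by inhibitors whose genes it switches on itself. The genes described here are 10 members of this circuit: the subunit genes *Nfkb1* and *Relb*, the cytoplasmic inhibitors *Nfkbia* and *Nfkbie*, the nuclear IκB proteins *Nfkbiz* and *Bcl3*, the ubiquitin editor A20 (*Tnfaip3*) with its binding partners *Tnip1* and *Tnip2*, and the ubiquitin ligase *Birc3*. They were chosen by name with earlier results of these data known. Shares of all gene names are therefore given beside member counts as descriptions, not as tests. Every probe carrying one of these names was taken, which gave 21 of the 56605 probes of the array and 10 of its 37074 gene names. C57BL/6J mice, 12 weeks old, received 100 μL of saline alone (Co mice, n = 4) or saline with sonicated *P. gingivalis*, a periodontal pathogen (Pg mice, n = 4). The dose was 100000000 CFU, which the labels print as 108. At 18 h after the intravenous injection, total RNA of tissue labelled as brown adipose tissue (BAT) was hybridized to Agilent one-color arrays, 1 array per mouse. The comparison of Pg with Co mice asks how endotoxemia alters gene expression in the BAT.

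At rest, IκB proteins hold NF-κB dimers in the cytoplasm. Signals from Toll-like receptors and cytokine receptors run through ubiquitin chains on adaptor proteins to the IKK complex, which marks the IκB proteins for degradation. The freed dimers then induce IκBα, A20 and other inhibitors, which close the circuit. In adipose tissue these signals can be received by adipocytes and by the macrophages, endothelial cells and other stromal cells around them.

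Promoter sequences are shown for 3 members because their probes stand for different outcomes below: *Tnfaip3* was the member called as a DEG, *Tnip1* passed the q threshold with a small difference, and *Nfkbia*, the textbook feedback target, passed neither. Each run is the stretch of 250 bases before the annotated start, from RefSeq on GRCm38.p6, written 5′ to 3′ on the strand of the gene, with capitals marking matches of the 10-base κB consensus on either strand. The stretch lies at chr10:19015411-19015660 (minus strand) for *Tnfaip3*, at chr11:54962941-54963190 (minus strand) for *Tnip1* and at chr12:55492648-55492897 (minus strand) for *Nfkbia*.
Tnfaip3: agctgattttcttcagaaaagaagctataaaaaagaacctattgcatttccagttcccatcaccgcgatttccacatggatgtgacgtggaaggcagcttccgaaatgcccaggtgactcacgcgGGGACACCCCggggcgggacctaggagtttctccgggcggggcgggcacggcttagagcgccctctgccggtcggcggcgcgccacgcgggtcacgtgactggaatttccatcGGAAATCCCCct
Tnip1: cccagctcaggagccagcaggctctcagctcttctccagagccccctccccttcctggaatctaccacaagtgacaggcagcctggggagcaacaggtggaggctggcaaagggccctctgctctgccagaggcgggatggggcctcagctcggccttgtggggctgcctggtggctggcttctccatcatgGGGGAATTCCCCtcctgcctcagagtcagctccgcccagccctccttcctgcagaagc
Nfkbia: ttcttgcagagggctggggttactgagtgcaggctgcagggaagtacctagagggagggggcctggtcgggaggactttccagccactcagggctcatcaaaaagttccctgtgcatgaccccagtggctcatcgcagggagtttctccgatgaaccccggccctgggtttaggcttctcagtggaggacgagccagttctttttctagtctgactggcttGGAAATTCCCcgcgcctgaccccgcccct

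*Tnfaip3* carried 2 matches, which began 125 and 12 bases before the start, and another annotated start of the gene carried none. The matches of *Tnip1* overlapped each other and began 58 bases before the start, and the match of *Nfkbia* began 29 bases before it. *Nfkbie* had 1 match 106 bases before its start. No match lay before the start of *Bcl3*, *Tnip2* or *Birc3*, although *Bcl3* had 1 just after it. Promoter entries were found for 7 of the 10 members, all but *Relb*, *Nfkb1* and *Nfkbiz*, and 4 of these 7 genes had a match before the start. Over 32851 promoters, 7.25% held the consensus in the same stretch. A match is a description of letters and not a measured binding site.

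Values are log2 of the processed signal after quantile normalization, and differences are Pg minus Co on this log2 scale. A probe was tested when it was well above background on at least 4 of 8 arrays. A DEG had a q under 0.1, which is the Benjamini-Hochberg adjusted p of limma over all 33819 tested probes, and a fold change above 1.5. All 10 members had a tested probe, and 18 of their 21 probes were tested. A gene with several tested probes is represented by its brightest, and the others are given beside it.

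The Pg arrays differed from the Co arrays before any gene was considered. The SD of the negative control spots was 2.53 to 3.25 on the Pg arrays and 2.31 to 2.38 on the Co arrays. The median log2 processed signal, without normalization, was 5.48 to 5.67 on the Pg arrays and 5.24 to 5.50 on the Co arrays. The Pg arrays were therefore not dimmer by this median. The part of the wider control spread in the probe counts that follow was not tested. Between 31132 and 34063 probes per Pg array were well above background, against 34760 to 35830 per Co array (two-sided exact permutation p = 0.0286, the smallest that 4 against 4 allows). The Co arrays lay in the first and the Pg arrays in the second position row of 1 slide, so slide position and injection cannot be told apart. The defining brown adipocyte gene *Ucp1* stayed below this limit on all 8 arrays, as did *Elovl3*, while *Cidea* was above it on all 8. All 10 skeletal muscle markers were well above background on all 8 arrays. Since this is bulk RNA, fewer cells of a type and less RNA per cell cannot be told apart.

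Of the 10 members, 1 was a DEG, *Tnfaip3*, upregulated 1.62-fold, where 1.18% of all gene names were DEGs. With the q threshold alone, 2 members rose, *Tnfaip3* and *Tnip1*, and none fell, where 6.23% of gene names passed it in either direction and 2.05% rose. The difference was above 0 for 7 members and below 0 for 3, with a median of 0.23, where 47.2% of gene names lay above 0 with a median of -0.01. The 4 Pg arrays all lay above the 4 Co arrays for *Tnfaip3*, *Tnip1* and *Relb*, and no member had all Pg arrays below, where these 2 patterns were found for 5.76% and 8.56% of gene names. An unadjusted p under 0.05 was found for 5 members, *Tnfaip3*, *Tnip1*, *Relb*, *Bcl3* and *Birc3*, where 20.3% of gene names had one.

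**Figure D1:**
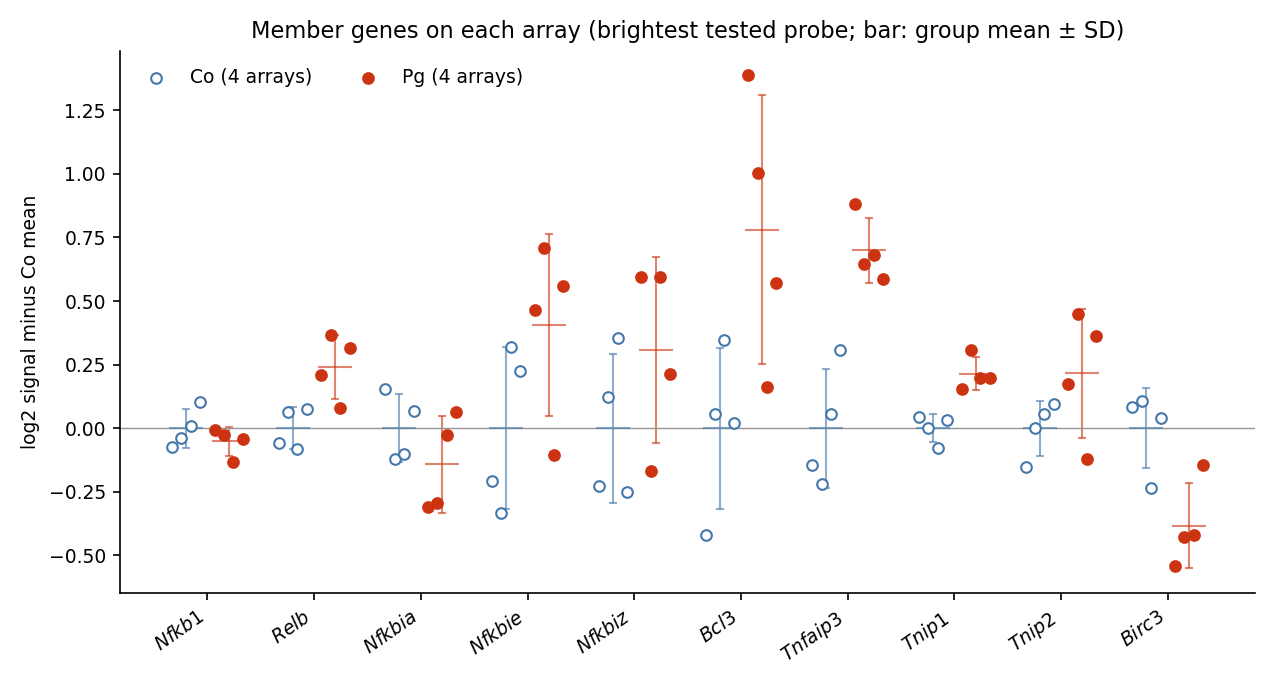
Log2 signal of the brightest tested probe of each member on each array, minus the mean of the 4 Co arrays. Open points are Co arrays and filled points are Pg arrays in the order 1 to 4, and bars give the group mean ± SD. *Tnfaip3*, *Tnip1* and *Relb* are the genes whose groups do not overlap, and *Bcl3* has the widest Pg group.

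The Pg arrays were not alike. The median deviation of the 10 members from the Co mean was 0.19 on Pg 1, 0.34 on Pg 2, 0.03 on Pg 3 and 0.26 on Pg 4, while the Co arrays ranged from -0.11 to 0.07. Pg 3 was therefore within the Co range. On Pg 1, Pg 2, Pg 3 and Pg 4, 7, 6, 4 and 6 members exceeded their highest Co value, where 25%, 25.1%, 20.9% and 25.3% of all gene names did. In the other direction, 2, 2, 2 and 0 members lay under their lowest Co value, where 29%, 30.8%, 27.8% and 27.2% of all gene names did.

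Among the A20 group, *Tnfaip3* encodes A20, which removes and adds ubiquitin on adaptor proteins and dampens signaling to NF-κB. Its only probe (A_55_P2053838, mm9 chr10:18720776-18720835, NM_009397) read 6.83, 6.76, 7.03 and 7.28 on the Co arrays and 7.86, 7.62, 7.66 and 7.56 on the Pg arrays. The means were 6.98 ± 0.23 (SD, n = 4) and 7.68 ± 0.13 (SD, n = 4). The lowest Pg array lay above the highest Co array. The difference was 0.70 (SE 0.13, 95% interval 0.41 to 0.99), with a limma q of 0.0509. Without Co 2 or without Co 3 the q was no longer under 0.1, and its highest value with 1 array left out was 0.116.

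The surroundings of the *Tnfaip3* spot were brighter on 3 of the Pg arrays. Of its 14 neighbouring spots (up to 2 rows and 1 column away), 8 were dim, with a median raw signal under 200 over the arrays. The median raw signal of these 8 was 54.2, 52.8, 58.1 and 57.4 on the Co arrays. It was 216 on Pg 1, 133 on Pg 2, 140 on Pg 3 and 58.9 on Pg 4. The raw signal of the *Tnfaip3* spot itself, without normalization, was 322, 268, 264 and 251 on the Pg arrays and 145 to 208 on the Co arrays. Pg 4, at 251, is the 1 Pg array whose surroundings were close to those on the Co arrays. When spots with raised dim neighbours were left out across the whole table, a setting added after the data were seen, only Pg 4 remained for this gene. The difference was then 0.59 with a q of 0.212, and the lone array was assumed to vary like the other group. The part of the raised surroundings in the difference of *Tnfaip3* was not tested further.

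**Figure D2:**
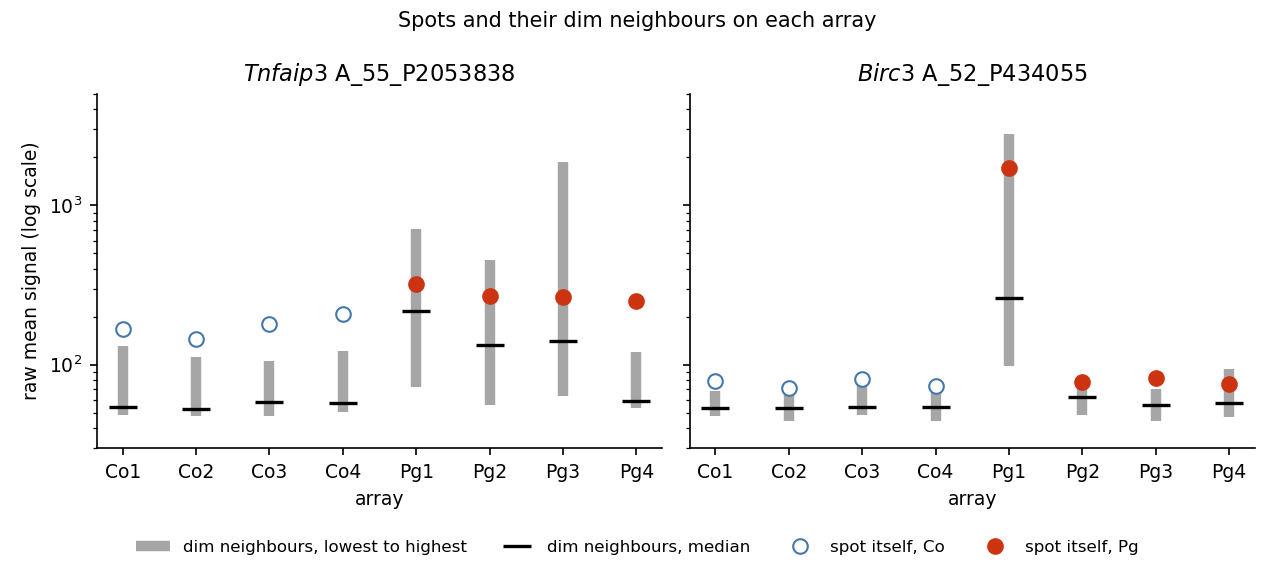
Raw mean signal (log scale) of the *Tnfaip3* spot and of the *Birc3* spot A_52_P434055 on each array, as circles, with the range (grey bar) and median (black line) of their dim neighbouring spots. For *Tnfaip3* the neighbours are raised on Pg 1, Pg 2 and Pg 3, and for *Birc3* the spot and its neighbours are raised on Pg 1.

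Such raised areas were more frequent on the Pg arrays, where 0.696% to 1.70% of probes lay in one, than on the Co arrays, where 0.081% to 0.148% did. Among the members, 3 probes had a value in one, those of *Tnfaip3* and of *Birc3* and *Nfkb1* below.

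*Tnip1* encodes ABIN1, which binds ubiquitin chains and brings A20 to its targets. Its brighter probe (A_55_P2118674, mm9 chr11:54724291-54724350, NM_001199275) read 11.94, 11.89, 11.82 and 11.92 on the Co arrays and 12.05, 12.20, 12.09 and 12.09 on the Pg arrays. All Pg arrays were above all Co arrays, by little. The difference was 0.21 (SE 0.06, interval 0.08 to 0.35), a fold change of 1.16 with a q of 0.0923, and it was no longer under 0.1 when any 1 of the 8 arrays was left out. The other probe, A_55_P2926755, was well above background on 4 Co arrays but only 1 Pg array. It entered the test through the Co arrays, so neither it nor the mean over both probes, which did not pass (q = 0.891), is read against the brighter probe. *Tnip2* encodes ABIN2, a partner of A20 that also stabilizes the kinase TPL2. It read 9.71, 9.86, 9.92 and 9.95 on the Co arrays and 10.03, 10.31, 9.74 and 10.22 on the Pg arrays. Pg 3 overlapped the Co arrays, and the difference of 0.22 (interval -0.08 to 0.51) did not pass (q = 0.355).

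The nuclear IκB proteins enter the nucleus and tune transcription by p50 and p52 dimers. *Bcl3* had the largest difference of the brightest member probes, 0.78 (SE 0.27, interval 0.15 to 1.41), and its q was 0.149. Its probe A_55_P2066116 (mm9 chr7:20393826-20393885) read 7.17, 7.65, 7.94 and 7.62 on the Co arrays and 8.98, 8.60, 7.76 and 8.16 on the Pg arrays. Pg 1, Pg 2 and Pg 4 exceeded every Co array, and Pg 3 fell among them. *Bcl3* was a DEG without Pg 3 (0.99, q = 0.0858). *Nfkbiz* encodes IκBζ, a coactivator of secondary response genes such as *Il6*. It read 6.76, 7.11, 7.34 and 6.74 on the Co arrays and 7.58, 6.82, 7.58 and 7.20 on the Pg arrays. The groups overlapped, with a difference of 0.31 (interval -0.18 to 0.79, q = 0.420). A second probe, A_55_P2039086, differed by -0.05 (q = 0.741). The remaining probes of *Nfkbiz* (A_55_P2714757) and *Bcl3* (A_55_P2930892) did not stand well above background on any of the arrays.

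The cytoplasmic inhibitors did not pass. *Nfkbia* encodes IκBα, the inhibitor that is degraded and resynthesized fastest in this circuit. Its single probe lies within the coding part of the transcript and is shown because its position spans 496 bases of the genome (mm9 chr12:56590945-56591440, minus strand) although it is 60 bases long.
A_51_P295192: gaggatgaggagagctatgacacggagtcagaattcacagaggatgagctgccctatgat

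It read 13.71, 13.43, 13.45 and 13.62 on the Co arrays and 13.24, 13.26, 13.53 and 13.62 on the Pg arrays. Pg 1 and Pg 2 lay below every Co array, and Pg 3 and Pg 4 lay among them. The difference was -0.14 (interval -0.40 to 0.11, q = 0.485), so the upper end of the interval corresponds to a fold change of 1.08. *Nfkbie* encodes IκBε, a slower inhibitor that mainly binds RelA and c-Rel. It read 4.67, 4.54, 5.20 and 5.10 on the Co arrays and 5.34, 5.59, 4.77 and 5.44 on the Pg arrays. Pg 3 again overlapped the Co arrays, while the other Pg arrays exceeded them. The difference was 0.41 (interval -0.09 to 0.90, q = 0.301).

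*Relb*, the transactivating subunit of the alternative pathway, read 9.35, 9.48, 9.33 and 9.49 on the Co arrays and 9.62, 9.78, 9.49 and 9.73 on the Pg arrays of its brightest probe (A_51_P389751). The groups did not overlap. The difference of 0.24 (SE 0.08, interval 0.06 to 0.43) missed the threshold, with a q of 0.134, and passed it without Pg 3 (q = 0.0923). The 2 other probes of *Relb* pointed apart, at -0.16 (q = 0.559) and 0.23 (q = 0.413). *Nfkb1* encodes p105, the precursor of p50 and itself an inhibitor. Its brightest probe, A_55_P2745489, read 11.07, 11.11, 11.16 and 11.25 on the Co arrays and 11.14, 11.12, 11.02 and 11.11 on the Pg arrays. The difference was -0.05 with an interval of -0.19 to 0.09 (q = 0.648), whose upper end corresponds to a fold change of 1.06. Its other probes differed by 0.02 (q = 0.926) and -0.12 (q = 0.469), and the first of them, A_52_P582969, lay in a raised area on Pg 2.

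*Birc3* encodes cIAP2, a ubiquitin ligase of the TNF receptor complex that also limits the alternative pathway. Its probes differed among themselves, and the sequences of the 2 that differed most are shown, both on the minus strand of mm9: A_55_P1980287 at chr9:7854409-7854468 and A_52_P434055 at chr9:7856162-7856221.
A_55_P1980287: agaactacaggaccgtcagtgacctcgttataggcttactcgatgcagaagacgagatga
A_52_P434055: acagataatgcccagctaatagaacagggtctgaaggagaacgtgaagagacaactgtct

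The brightest probe, A_55_P1980287, read 6.16, 6.18, 5.84 and 6.12 on the Co arrays and 5.53, 5.65, 5.65 and 5.93 on the Pg arrays. Pg 4 overlapped Co 3, and the other Pg arrays lay below all Co arrays. The difference was -0.38 (SE 0.11, interval -0.64 to -0.13), a fold change of 0.767, with a q of 0.104. Probe A_52_P434055 read 4.95, 4.87, 5.25 and 4.75 on the Co arrays and 10.74, 4.47, 4.81 and 4.61 on the Pg arrays. One array, Pg 1, therefore set its difference of 1.20 (SE 1.34, q = 0.629), and without Pg 1 the difference was -0.33 (q = 0.255). This probe was well above background on 4 Co arrays but only 2 Pg arrays, Pg 1 and Pg 4. The value without Pg 1 thus rests on a probe detected mainly on the Co arrays and gives no separate support to the brightest probe. The raw signal of this spot was 1708 on Pg 1 and 71.3 to 81.8 on the other 7 arrays. Its 12 dim neighbouring spots read 98.2 to 2793 on Pg 1 and 44.0 to 94.1 on the others, and the scanner software put no outlier mark on the spot. Another probe, A_55_P2713605, well above background on 4 Co and 3 Pg arrays, differed by -0.31 (q = 0.380), and A_55_P2713600 was well above background on only 1 array.

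**Figure D3:**
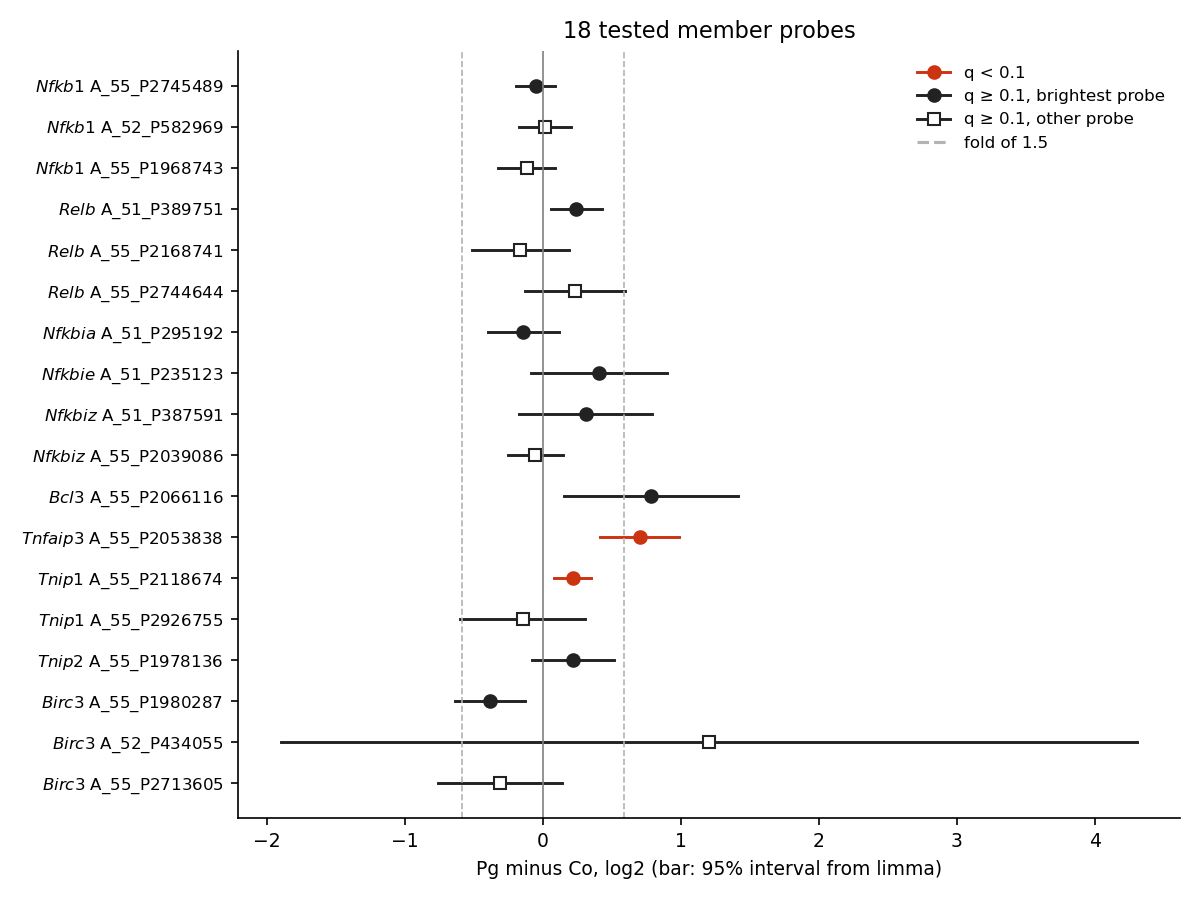
Difference between Pg and Co on the log2 scale with the 95% interval of limma for each of the 18 tested member probes. Filled circles are the brightest probe of each gene, open squares its other probes, and the dashed lines mark a fold change of 1.5. The probes of *Tnfaip3* and *Tnip1* with q under 0.1 are in red, and the widest interval belongs to the *Birc3* probe read at 10.74 on Pg 1.

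Across 9 other settings and with each of the 8 arrays left out, the brightest probe of every member kept the sign of its difference, while the calls changed. *Tnfaip3* was under the q threshold in 6 of the 9 settings and in 6 of the 8 fits with 1 array left out. *Relb* passed in 1 of 9 and 1 of 8, *Bcl3* in 0 of 9 and 1 of 8, *Birc3* in 1 of 9 and 0 of 8, and *Tnip1* in 2 of 9 and 0 of 8.

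**Figure D4:**
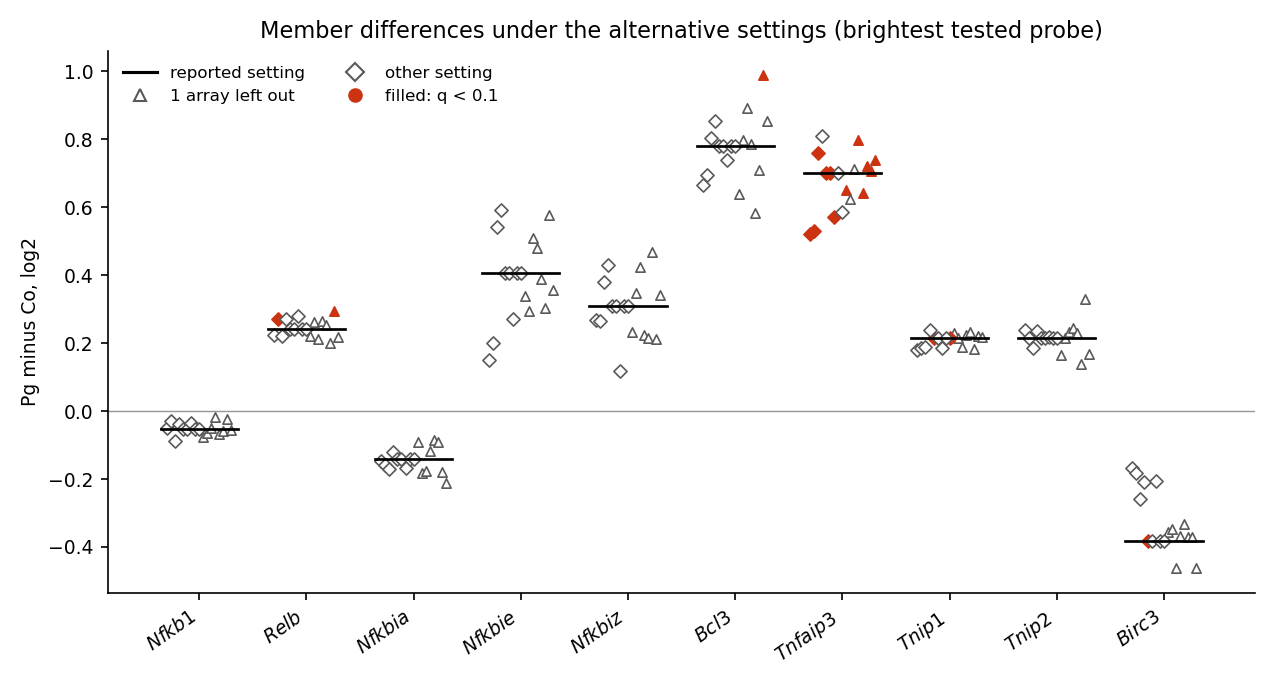
Difference between Pg and Co on the log2 scale for the brightest probe of each member, as reported (line), with 1 array left out (triangles) and under 9 other settings of signal, normalization, filter, block and spots left out (diamonds). Filled symbols had a q under 0.1. The symbols of each gene stay on 1 side of 0, and *Tnfaip3* has the most filled ones.

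The other genes of the pathway were read from a list of 83 genes. Of these, 67 had a tested probe, 46 above 0 and 21 below, with a median difference of 0.07. With the q threshold, 6 rose and 1 fell, where 2.05% and 4.18% of all gene names did, and 1 was a DEG. The 6 that rose were *Rela*, *Chuk*, *Map3k7*, *Traf2*, *Traf3* and *Icam1*, and the gene that fell was *Birc2*, the paralog of *Birc3*. Their q values lay close to the threshold: with 1 array left out, *Rela*, *Traf3*, *Icam1* and *Birc2* each passed in 1 of 8 fits, and *Chuk*, *Map3k7* and *Traf2* in none. Across the other settings *Traf3* passed in 6 of 8, *Icam1* in 6 of 9, *Chuk* and *Map3k7* in 4 of 9 each, *Rela* in 3 of 8, *Birc2* in 3 of 9 and *Traf2* in 2 of 8, with 8 settings for the probes that the log2 values of the authors do not cover.

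Among the other subunits and IκB proteins, 1 of 5 tested genes passed. *Rela*, the main transactivating subunit, ranged from 12.36 to 12.50 in Co mice and from 12.53 to 12.86 in Pg mice and rose by 0.29 (q = 0.0930), while its second probe differed by -0.20 (q = 0.431). *Nfkbib*, which encodes IκBβ, differed by -0.08 (q = 0.543). Of 11 tested genes of the IKK complex and its upstream kinases, 9 lay above 0 and 2 passed: *Chuk*, the catalytic subunit IKKα, rose by 0.20 (q = 0.0904), and *Map3k7*, the kinase TAK1, by 0.23 (q = 0.070), each on its brightest probe. Their other probes did not pass. That of *Chuk* differed by -0.09 (q = 0.622), and those of *Map3k7* by -0.27 (q = 0.158) and 0.02 (q = 0.928). The scaffold *Ikbkg* (NEMO) differed by -0.25 (q = 0.138) and *Map3k8* (TPL2) by 0.23 (q = 0.585).

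Of 22 receptors and adaptors, 15 lay above 0, 2 rose and 1 fell. *Traf3*, which holds the alternative pathway in check together with *Birc2*, *Birc3* and *Traf2*, rose by 0.35 (q = 0.0621), with 0.14 on its other probe (q = 0.228). *Traf2* rose by 0.25 (q = 0.0914), with 0.02 on its other probe (q = 0.884). *Birc2* fell by 0.22 on its brightest probe (q = 0.0928). Its other probe was well above background on 4 Co arrays but only 1 Pg array, so it entered the test through the group where it was higher and gives no separate support. *Cd14*, the lipopolysaccharide co-receptor, differed by 0.99 on its brightest probe (SE 0.83, q = 0.512), which read 11.28 on Pg 4, 7.10 to 8.07 on the other Pg arrays and 7.23 to 7.75 on the Co arrays. The other *Cd14* probe differed by 0.55 (SE 0.21, q = 0.179), and neither passed. *Cd40* differed by -0.44 and did not pass.

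Of 12 other negative regulators and ubiquitin linkers, 6 lay above 0, 6 below, and none passed. The largest differences, -0.30 for *Zc3h12a* (Regnase-1) and -0.28 for *Itch*, were both below 0. Among the secreted and surface targets, 17 of 30 had a tested probe, 13 of them above 0, and 1 passed. *Icam1*, the leukocyte adhesion molecule, read 8.21, 8.22, 8.68 and 8.40 on the Co arrays and 9.44, 9.19, 8.65 and 9.20 on the Pg arrays. It was upregulated by 0.74 (SE 0.18, q = 0.0755) although Pg 3 overlapped the Co arrays, and it was a DEG in 1 of 8 fits with 1 array left out, that without Pg 3. Its other probe differed by 0.41 (q = 0.642). *Cxcl1*, a neutrophil chemokine, read 4.48, 5.15, 5.50 and 4.87 on the Co arrays and 7.96, 6.76, 5.66 and 5.91 on the Pg arrays. Its groups did not overlap, and the difference of 1.57 had a q of 0.122. *Tnfaip2* differed by -0.99 with Co 4 at 14.42, while the other 7 arrays read 10.06 to 10.30. *Il1a*, *Cxcl2*, *Cxcl5*, *Ccl20*, *Csf2*, *Csf3* and *Sele* did not stand well above background on any of the arrays.

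**Figure D5:**
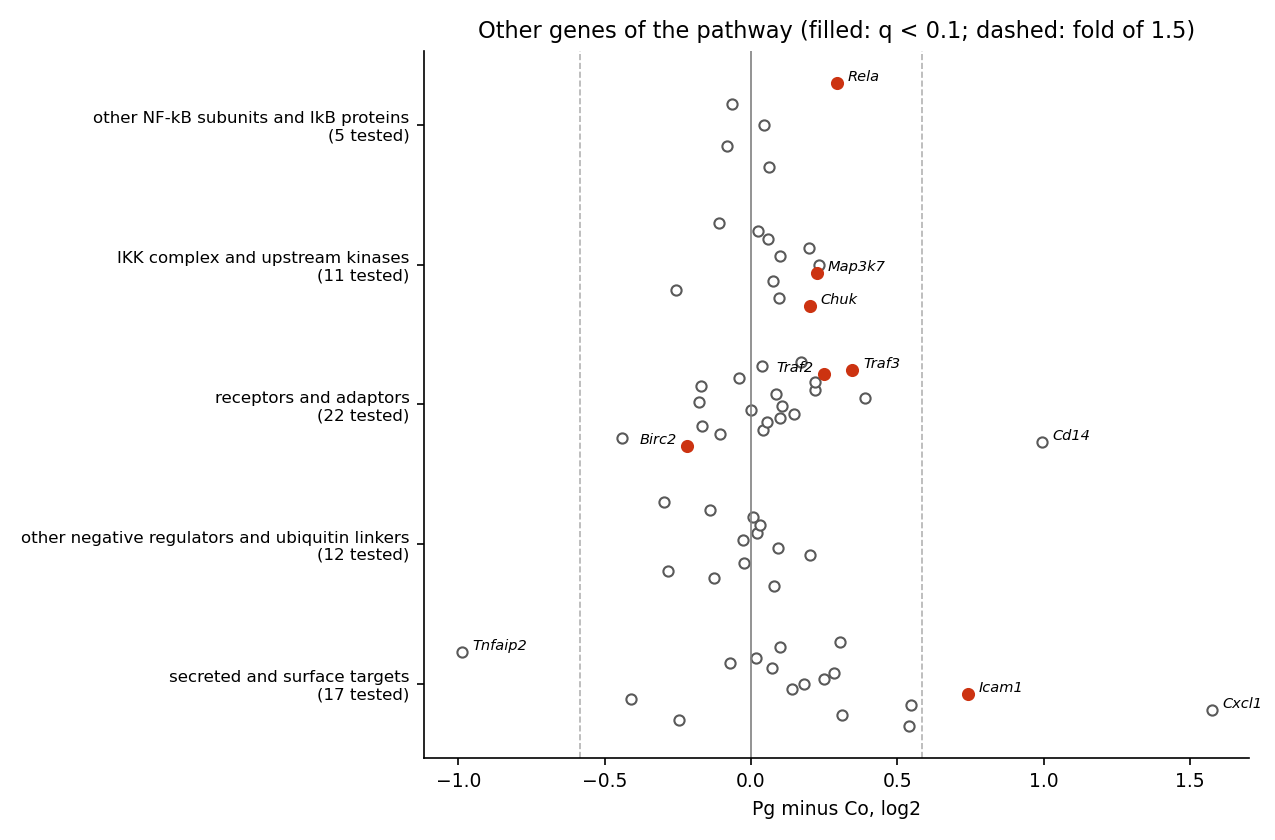
Difference between Pg and Co on the log2 scale of the brightest tested probe of 67 other pathway genes, by role. Filled points had a q under 0.1 and dashed lines mark a fold change of 1.5. *Icam1* is the filled point beyond a dashed line, while *Cxcl1*, *Cd14* and *Tnfaip2* lie farther out and did not pass.

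Summed signals of markers of other cell types differed between arrays, some higher and some lower in Pg mice, and their part in the differences was not tested. Of the 9 neutrophil markers, 6 were tested and none passed. Their summed signal was 10.43 to 10.49 on the Co arrays and 11.70, 11.42, 10.21 and 10.80 on Pg 1 to Pg 4. *S100a8* differed by 2.16 (q = 0.132) and *S100a9* by 2.04 (q = 0.195), while the other 4 tested markers ranged from -0.03 for *Elane* to 0.22 for *Mpo*, and the median of the 6 was 0.16. *Ngp* stayed below the detection limit everywhere. The summed signal of the 8 macrophage markers ranged from 14.73 to 14.96 in Co mice and from 14.79 to 15.08 in Pg mice, and none passed. This sum is weighted toward the bright *Itgam* probe, which differed by -0.05, while 6 markers lay above 0 and 2 below, with a median of 0.22. For 8 endothelial markers the ranges were 13.67 to 14.06 and 13.95 to 14.11, with 5 markers above 0 and 3 below. *Kdr* rose by 0.57 (q = 0.0573), whereas *Pecam1* differed by -0.20 (q = 0.151) with every Pg array below every Co array, and *Tek* and *Tie1* by -0.14 each. Skeletal muscle markers summed to between 21.29 and 21.38 in Co mice and between 21.25 and 21.36 in Pg mice, with no marker past the threshold. These sums rest on probes near the top of the scale, where quantile normalization leaves little room for a difference. The mean log2 signal of the same markers ranged from 17.00 to 17.58 in Co mice and from 16.64 to 17.60 in Pg mice. Of 5 tested T and B cell markers, *Cd79b* rose by 1.69 (q = 0.0867), and its spot lay in a raised area on Pg 1 and Pg 2. All 5 red blood cell markers lay below 0, with a median of -0.63, and none passed. Their summed signal ranged from 18.07 to 18.80 in Co mice and read 17.77, 18.29, 16.92 and 18.86 on Pg 1 to Pg 4. The 6 tested brown adipocyte markers, 4 above 0 and 2 below, summed to between 17.95 and 18.16 in Co mice and between 18.07 and 18.18 in Pg mice. For 7 adipocyte markers, 6 above 0 and 1 below, the sums were 16.29 to 16.50 and 16.29 to 16.65. None of these adipocyte markers passed.

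The 5 genes most like the members over the 8 arrays were taken by Pearson's r with the mean standardized profile of the 10 brightest member probes, among 19631 other genes above background on all arrays. They were *Gem* (r = 0.987), *Sox4* (r = 0.986), *Itpripl2* (r = 0.984), *Elk3* (r = 0.979) and *Tpst1* (r = 0.978). These values describe 8 arrays that share their groups and slide. Within the members, *Nfkbie* and *Tnip2* were the most alike (r = 0.895) and *Tnfaip3* and *Birc3* the most opposed (r = -0.849).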

How the data were processed

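Total RNA of 8 mice (4 Co, 4 Pg) was hybridized to 8 Agilent one-color arrays. The authors deposited the Agilent Feature Extraction 11.0.1.1 output, which holds the Cy3 intensity of each spot, background-subtracted and without normalization between arrays; surrogates replace low values. The authors also deposited log2 values, quantile-normalized, for part of the probes, with their own fold changes and p-values, which were not used. Gene names are those of the array design; the accession of 13 of 21 member probes was in RefSeq (GRCm38.p6), with the same symbol. Probe positions are mm9.

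Control and population outlier spots were left out, spots of a probe averaged, processed signals quantile-normalized, set to at least 1 and put on the log2 scale. The 2 groups were compared by limma 3.58.1 (lmFit, eBayes; two-sided) in R 4.3.3 over probes that passed the background limit on 4 or more arrays, as the study's methods name limma, q under 0.1 and fold change above 1.5. Precision is limited by the number of arrays. The fit was tested on simulated data with independent noise and known shifts, which held no raised areas, slide position effects or normalization step. A gene is represented by its brightest tested probe. Members, gene lists and tests were chosen with earlier results of these data known. Named pathway genes are those with q under 0.1 and the 2 largest differences of each role among probes above background on all arrays; markers were not ranked by level, since levels of different probes are not comparable. Alternatives changed the signal, the normalization, the filter, the probe that stands for a gene, the replicate block and the arrays included, and used the log2 values of the authors. The labels name 1 mouse per array.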

Additional observations from a re-analysis of the deposited data

Results flagged for a closer look

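In 72 groups of 4 arrays examined (each named probe in each group, and 2 measures of array quality), 3 values stood apart from the other 3 arrays of their group, and chance alone marks about 1 in 20 groups. The *Birc3* probe A_52_P434055 read 10.74 on Pg 1. The *Nfkbiz* probe A_55_P2039086 read 6.06 on Pg 4, below the other Pg arrays. *Tnfaip2* read 14.42 on Co 4.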

How the results depend on the processing

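The median member difference stayed within its spread between arrays under every setting, from 0.15 to 0.26, and 7 members lay above 0 in each, or 8 with the mean over the probes of a gene. The added member was *Birc3*, whose mean of 0.17 (q = 0.839) includes A_52_P434055, read at 10.74 on Pg 1. The other tested probes of *Birc3* differed by -0.38 and -0.31. The number of member DEGs, 1 as reported, was 0 with normexp, with the median signal, without normalization between arrays, with the log2 values of the authors and with spots in raised areas left out (chosen after seeing the data), and 0 to 2 with 1 array left out. The number of members with q under 0.1, 2 as reported, was 0 without normalization, 1 with normexp, 75th percentile scaling, no filter, the mean over probes, the values of the authors or raised areas left out, 3 with probes above background on all arrays, and 0 to 3 with 1 array left out. For the pathway genes, 1 DEG became 0 without normalization or filter and 0 to 2 with 1 array left out. Their 7 calls at q under 0.1 became 9 with normexp, 8 with probes above background on all arrays, 4 with the median signal, 2 with 75th percentile scaling or no filter, 1 with the values of the authors, which cover 55 of them, 0 without normalization, and 0 to 5 with 1 array left out. Over all probes, 546 DEGs became 94 with normexp, 108 with the median signal, 283 with 75th percentile scaling, 27 without normalization, 318 with probes above background on all arrays, 106 with the values of the authors, and 3 (without Co 3) to 698 (without Pg 3) with 1 array left out. Of the 546 DEGs 19.4% were higher in Pg mice, against 70.2% with normexp, 69.4% with the median signal, 48.4% with 75th percentile scaling, 74.1% without normalization and 56.6% with the values of the authors. The share also moved with the filter, to 33.6% with probes above background on all arrays and 22.0% with no filter. The difference changed sign for A_52_P434055 of *Birc3* (-0.33 with raised areas left out, -0.33 to 1.77 with 1 array left out), A_52_P582969 of *Nfkb1* (-0.0022, and -0.030 to 0.055), A_55_P2039086 of *Nfkbiz* (0.060 with 75th percentile scaling, 0.11 without normalization) and A_55_P2926755 of *Tnip1* (0.042 without normalization). The cause of these changes was not tested.

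Co and Pg arrays with the same number in their titles lay in the same position column of the slide. Deviations of same-numbered arrays correlated by -0.07 to 0.18. For numbers 1 (0.06 against 0.04) and 4 (0.18 against 0.01) this was above the highest correlation with another number. For numbers 2 (-0.03 against 0.13) and 3 (-0.07 against 0.06) it was below. These values do not settle whether the arrays are paired, and the reported fit treats them as unpaired. With the replicate block, 0 members, 0 pathway genes and 0 probes passed the q threshold or were DEGs. With 4 arrays a group, intervals of members with noisy probes, such as *Bcl3*, *Nfkbie* and *Nfkbiz*, span more than the fold change of 1.5 asked of a DEG.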
